A study of Mus musculus with 121 samples.

Results

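Libraries were selected on the measured level of Nr1d1, the gene of the nuclear receptor REV-ERBα, and not by their labels. After the 2 sequencing runs of each library were summed, 41 of the 62 libraries of the series belonged to one of 2 groups, 16 high libraries with at least 80 counts per 1000000 (CPM) of Nr1d1 and 25 low libraries with at most 20 CPM. A further 20 libraries lay between these limits, and 1 library was left out because its total, 104912 counts, was under 1000000. Nr1d1 itself chose the groups, so its own values are given as a description without a test between the groups. It enters only the search for outlying libraries described near the end.

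All libraries came from 1 line of immortalised mouse fibroblasts at expansion passage 25, which carry the PER2::LUC sv knock-in reporter, a fusion of luciferase to the clock protein PER2, so every group carries the reporter. Under HH, HL and LH, a medium high (H) or low (L) in glucose and insulin was set every 12 h in the order of the letters, over 3 cycles. By the paper, 12 h of free running, without these cycles, came next. RNA was then collected 6 times at 4 h intervals. RNA was measured by 3′DGE, which reads only the 3′ end of each transcript, and 1 count is 1 aligned read. The study's methods state that its replicates are biological unless said otherwise and that technical replicates were pooled. The labels do not tie single libraries to separate cultures, and p-values measure the spread between these libraries.

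By the titles of the samples, the high group held 5 HH, 6 HL and 5 LH libraries and the low group 8 HH, 8 HL and 9 LH libraries. The study's read summary gives another name, or none, to the library number of 40 of the 62 libraries, none of them HH. By the titles the high libraries came from collections 3 (4 libraries), 4 (7), 5 (3) and 6 (2), whereas by the read summary they came from collections 3 (9) and 4 (7) alone. Groups formed on Nr1d1 need neither name, but libraries of the same treatment and collection share their earlier medium cycles and their time of collection. What follows are therefore associations across libraries and not effects of a treatment or of REV-ERBα.

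In the mammalian clock, BMAL1 (the product of Arntl) and CLOCK activate genes through E-boxes, among them those of the PER, CRY and REV-ERB repressors. REV-ERB proteins repress Arntl, Nfil3 and other genes through a response element called RORE, where ROR receptors activate. DBP, TEF and HLF activate, and NFIL3 represses, at D-boxes, and in tissues and cultured fibroblasts these genes rise and fall in a daily order.

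Promoter windows of 5 genes described below are shown because these genes differed between the groups and each window holds one of the 3 elements. A window runs from 250 bases before to 50 bases after a RefSeq transcript start (GRCm38.p6), and is printed 5′ to 3′ on the strand of the gene, with each match on either strand in capitals. The letters searched were CACGTG for the E-box and TTATGTAA or TTATGCAA for the D-box, and the RORE was searched by its consensus. Of the 2 Arntl windows, which overlap, the one printed (chr7:113207261-113207560, plus strand) holds a RORE and the other holds none of the 3 elements; those of Ciart (chr3:95882179-95882478, minus strand), Bhlhe41 (chr6:145865371-145865670, minus strand) and Cry1 (chr10:85185005-85185304, minus strand) hold E-boxes, and that of Per3 (chr4:151044616-151044915, minus strand) holds D-boxes.
Arntl: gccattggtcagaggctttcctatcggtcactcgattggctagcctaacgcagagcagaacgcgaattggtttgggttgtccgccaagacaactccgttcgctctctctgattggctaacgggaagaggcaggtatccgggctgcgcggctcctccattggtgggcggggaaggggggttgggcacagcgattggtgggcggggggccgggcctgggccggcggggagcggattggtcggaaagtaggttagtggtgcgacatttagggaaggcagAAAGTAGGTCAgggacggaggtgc
Ciart: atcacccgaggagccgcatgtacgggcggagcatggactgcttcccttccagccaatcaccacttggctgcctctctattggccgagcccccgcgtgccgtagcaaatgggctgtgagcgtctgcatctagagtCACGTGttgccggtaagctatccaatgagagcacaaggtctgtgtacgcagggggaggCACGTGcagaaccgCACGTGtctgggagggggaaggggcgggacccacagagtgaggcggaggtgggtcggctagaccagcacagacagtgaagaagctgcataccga
Bhlhe41: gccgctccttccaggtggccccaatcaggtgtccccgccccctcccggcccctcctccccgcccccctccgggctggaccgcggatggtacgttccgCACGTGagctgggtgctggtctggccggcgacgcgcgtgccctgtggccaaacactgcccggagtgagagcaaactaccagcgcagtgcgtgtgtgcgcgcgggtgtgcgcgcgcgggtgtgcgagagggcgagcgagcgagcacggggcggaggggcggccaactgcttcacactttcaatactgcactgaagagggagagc
Cry1: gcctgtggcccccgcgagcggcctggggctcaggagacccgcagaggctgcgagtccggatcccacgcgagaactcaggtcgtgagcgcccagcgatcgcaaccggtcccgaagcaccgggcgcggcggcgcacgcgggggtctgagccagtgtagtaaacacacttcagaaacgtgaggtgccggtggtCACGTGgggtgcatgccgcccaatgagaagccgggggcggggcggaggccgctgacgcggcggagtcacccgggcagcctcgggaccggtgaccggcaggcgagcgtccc
Per3: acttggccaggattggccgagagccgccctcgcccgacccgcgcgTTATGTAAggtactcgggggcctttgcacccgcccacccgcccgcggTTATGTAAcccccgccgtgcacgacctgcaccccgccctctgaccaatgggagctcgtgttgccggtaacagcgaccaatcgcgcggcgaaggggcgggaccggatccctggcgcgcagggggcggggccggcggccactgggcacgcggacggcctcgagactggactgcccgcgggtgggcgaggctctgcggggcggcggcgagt

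Nr1d1 ranged from 86.4 to 210 CPM in the high libraries (median 131) and from 3.21 to 19.9 CPM in the low libraries (median 13.3). The libraries nearest to the limits had 86.4 CPM (the lowest of the high group), 77.6 CPM (the highest between the limits), 21.3 CPM (the lowest between the limits) and 19.9 CPM (the highest of the low group). Behind these values stand 307 to 1344 counts of Nr1d1 in a high library and 15 to 119 in a low library. Total counts overlapped, with 3551834 to 8319236 (median 6064618) in the high group and 2136819 to 9785826 (median 5912822) in the low group. The plot of Nr1d1 by library shows that all 3 treatments are present in each group.

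**Figure D1:**
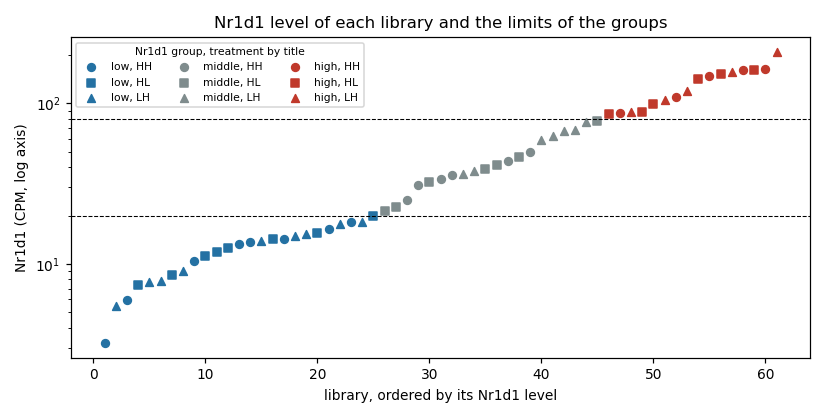
Nr1d1 level of the 61 libraries with at least 1000000 counts, in CPM on a log axis, ordered from the lowest to the highest; colour gives the group, symbol the treatment in the title, and the dashed lines the limits of 20 and 80 CPM. The levels run from 3.21 to 210 CPM without a wide gap at either limit.

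The cells carried the genes that mark fibroblasts. Col1a2, a collagen of the fibroblast matrix, had a median of 15548 CPM over the libraries, and Pdgfra, a growth factor receptor of fibroblasts, had 600.1 CPM, whereas Fap, another fibroblast marker, had a median of 0. Of the 8 endothelial markers only Kdr, a receptor for VEGF, had more than a trace (median 181 CPM), and the other 7 had a median of 0. The summed CPM of the 11 fibroblast markers was 24208 to 36480 in the high libraries and 18430 to 41995 in the low libraries, that of the 8 macrophage markers 16.3 to 36.6 and 14.4 to 43.1, that of the 8 endothelial markers 133 to 236.7 and 37.4 to 270, and that of the 8 epithelial markers 1.32 to 3.66 and 0.585 to 4.45. For each of these sums the groups overlapped.

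Of 13265 genes tested (at least 1 CPM in at least 3 libraries, Nr1d1 left out), 31 differed between the groups at a Benjamini-Hochberg adjusted p under 0.05 by edgeR's quasi-likelihood test, which is 0.234% of the genes. Of these, 14 were higher in the high libraries (0.106%) and 17 lower (0.128%). Without adjustment, 1202 genes (9.06%) had p under 0.05. Among the 31 were 10 of the 36 tested genes of the clock lists, and all 9 of the 31 that differed by at least 2-fold were clock genes. The clock lists were drawn up with earlier results of these data known. For 4 genes, 0.0302% of those tested, the groups did not overlap at all, namely Bhlhe41, Dbp and Nr1d2, which were higher, and Nfil3, which was lower.

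**Figure D2:**
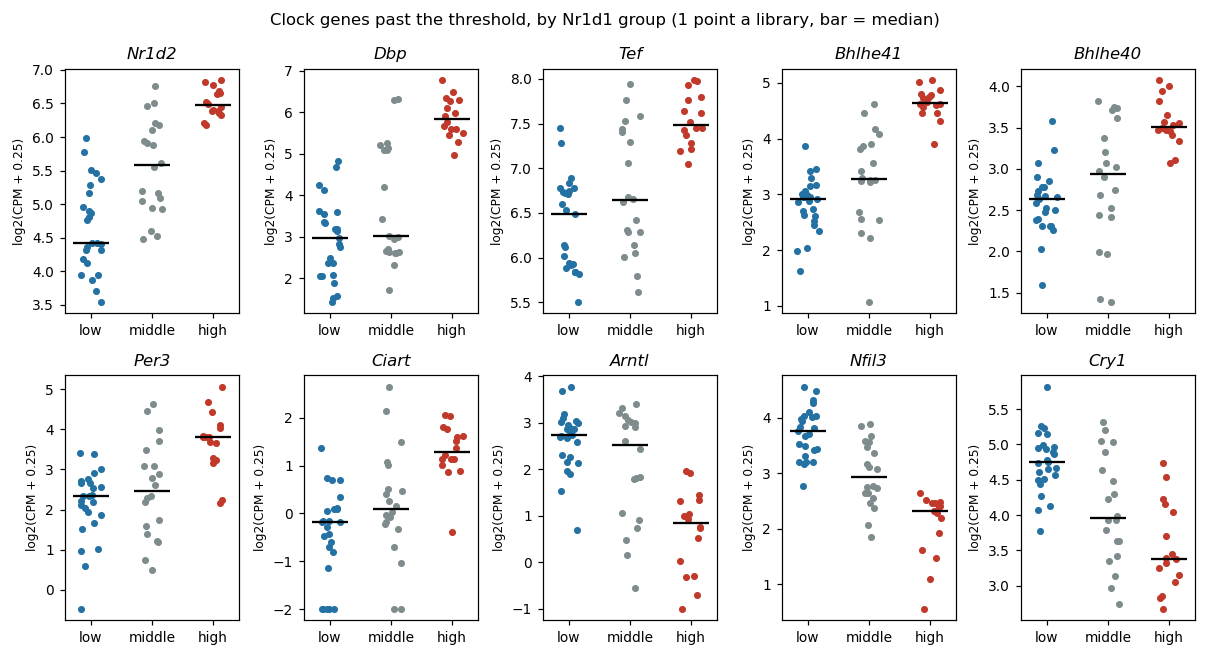
The 10 clock genes past the threshold, on the log2(CPM + 0.25) scale, in the 25 low, 20 middle and 16 high libraries, with 1 point for each library and a bar at the median. Low and high libraries do not overlap for Nr1d2, Dbp, Bhlhe41 and Nfil3, and the middle libraries spread over most of the range of both groups.

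The paralogue of Nr1d1, Nr1d2, codes for REV-ERBβ, which binds the same elements. Nr1d2 (chr14:18204054-18239127, GRCm38) ranged from 72.0 to 115 CPM in the high libraries (median 88.6) and from 11.4 to 63.2 CPM in the low libraries (median 21.3), and every high library stood above every low one. The difference was 3.21-fold, a log2 fold change of 1.68 ± 0.16 (SE, 16 against 25 libraries, edgeR adjusted p = 8.9e-11).

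Of the 3 PAR bZIP genes, whose products carry the clock's rhythm to target genes, Dbp and Tef were higher where Nr1d1 was high and Hlf did not pass the test. Dbp (chr7:45705088-45710203) ranged from 31.2 to 110 CPM in the high libraries (median 57.0) and from 2.44 to 28.2 CPM in the low libraries (median 7.62), again without overlap. With a 6.45-fold difference (log2 2.69 ± 0.23 SE, edgeR adjusted p = 2.5e-12), it had the largest change of the 31 genes. Its 3′ end overlaps that of Sphk2 on the other strand, and the strand setting of the counting is not given in the sources used here.

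Tef, a relative of Dbp, ranged from 132 to 254.3 CPM in the high libraries (median 179) and from 45.0 to 174 CPM in the low libraries (median 89.4), and 23 of the 25 low libraries lay below every high one. The difference was 2.11-fold (log2 1.08 ± 0.13 SE, edgeR adjusted p = 1.43e-07). Hlf had medians of 47.4 and 53.0 CPM (log2 0.05 ± 0.21 SE, edgeR adjusted p = 0.967).

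Nfil3, whose protein competes with the PAR bZIP factors and whose gene is a known target of REV-ERB, ran the other way. Nfil3 (chr13:52967209-52981073) ranged from 1.22 to 6.05 CPM in the high libraries (median 4.73) and from 6.60 to 23.4 CPM in the low libraries (median 13.3). It was 3.24-fold lower where Nr1d1 was high (log2 -1.70 ± 0.16 SE, edgeR adjusted p = 8.83e-11).

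Of the activators and ROR receptors of the clock, Arntl alone passed the test. Arntl (chr7:113207465-113314126), printed above with its RORE, ranged from 0.247 to 3.64 CPM in the high libraries (median 1.54) and from 1.37 to 13.5 CPM in the low libraries (median 6.44). It was 4.08-fold lower (log2 -2.03 ± 0.26 SE, edgeR adjusted p = 7.67e-07), and 21 of the 25 low libraries stood above every high one. The partner of its product, Clock, had medians of 64.6 and 68.3 CPM and did not pass (log2 -0.08 ± 0.08 SE, edgeR adjusted p = 0.818). Neither did Rora, a ROR receptor gene (medians 158 and 168 CPM, log2 -0.12 ± 0.14 SE, edgeR adjusted p = 0.856), nor Npas2, Arntl2 and Rorb, whose medians were between 0.167 and 4.79 CPM in both groups.

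Among the 9 genes listed as repressors, besides Nr1d2, 4 more were higher and 1 was lower. Bhlhe41, coding for the repressor DEC2 (chr6:145858243-145865558), ranged from 14.8 to 33.1 CPM in the high libraries (median 24.8) and from 2.83 to 14.4 CPM in the low libraries (median 7.26), a 3.38-fold difference (log2 1.76 ± 0.12 SE, edgeR adjusted p = 3.79e-15). No gene tested had a smaller p. Its relative Bhlhe40 (DEC1) ranged from 8.17 to 16.6 CPM and from 2.78 to 11.7 CPM, with medians of 11.1 and 5.96 CPM (log2 0.92 ± 0.12 SE, edgeR adjusted p = 1.53e-06), and its groups overlapped.

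The Period genes were not alike. Per3 ranged from 4.21 to 33.2 CPM in the high libraries (median 13.7) and from 0.468 to 10.3 CPM in the low libraries (median 4.80), and passed the test (log2 1.51 ± 0.22 SE, edgeR adjusted p = 1.51e-05). It overlaps Camta1 on the same strand over its whole length. Per2 had medians of 3.83 and 2.34 CPM and a log2 fold change of 1.03 ± 0.33 (SE) that did not pass (edgeR adjusted p = 0.263), and Per1 had 9.23 and 8.09 CPM (log2 0.25 ± 0.16 SE, edgeR adjusted p = 0.688). How transcripts of the Per2 reporter allele were counted is not given in the sources used here.

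Cry1 was the only listed repressor lower in the high libraries. It ranged from 6.12 to 26.5 CPM there (median 10.2) and from 13.5 to 56.2 CPM in the low libraries (median 26.7), a 2.28-fold difference (log2 -1.19 ± 0.17 SE, edgeR adjusted p = 1.51e-05). Cry2 had medians of 13.6 and 12.9 CPM and did not pass (edgeR adjusted p = 0.941). Ciart, a repressor of BMAL1 and CLOCK, was higher (medians 2.19 and 0.628 CPM, edgeR adjusted p = 0.00129), but 5 of the 25 low libraries had no count of it, so its log2 fold change of 1.87 ± 0.34 (SE) depends on how the fit treats low counts. C920021L13Rik overlaps Ciart on the other strand over its whole length, so without a known strand setting their reads cannot be told apart.

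Thra, the gene of a thyroid hormone receptor, lies opposite to Nr1d1 and shares 1075 bases with it at the 3′ end, where 3′DGE reads fall. Thra had medians of 440 CPM in the high and 417 CPM in the low libraries, with ranges of 303 to 527 and 244 to 490 CPM, and did not differ by the test (log2 0.02 ± 0.07 SE, edgeR adjusted p = 0.966). Of the 16 tested kinases, ligases and cofactors of the clock, none passed the edgeR test, and 1 had an unadjusted p under 0.05, against 9.06% of all genes, namely Csnk1d, coding for casein kinase 1 delta (log2 -0.15 ± 0.06 SE, edgeR adjusted p = 0.445).

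The other 21 genes past the threshold were in no clock list and differed less, with log2 fold changes from -0.95 to 0.70. The 7 higher ones included Ctxn1, a small membrane protein gene (medians 38.5 and 24.6 CPM, log2 0.64 ± 0.10 SE, edgeR adjusted p = 2.83e-05), and Hbegf, an EGF receptor ligand (48.8 and 33.3 CPM, log2 0.53 ± 0.10 SE, edgeR adjusted p = 0.00129). Of the 16 high libraries, 8 stood above every low library in Ctxn1 and 10 in Hbegf. The others were Gpr146, an orphan receptor gene (14.2 and 8.79 CPM), Fkbp7, a prolyl isomerase of the endoplasmic reticulum (218 and 178 CPM), Anapc5, a subunit of the anaphase-promoting complex (273.5 and 208 CPM), Il18, a cytokine gene (59.9 and 47.5 CPM), and Pmepa1, an inhibitor of TGF-β signalling (286 and 220 CPM).

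Among the 14 lower genes outside the clock lists, D030056L22Rik had the largest difference, with 6.06 to 17.1 CPM in the high libraries (median 8.86) and 8.28 to 34.8 CPM in the low libraries (median 17.4; log2 -0.95 ± 0.16 SE, edgeR adjusted p = 0.00015). Ier5, an immediate early gene, had medians of 18.4 and 29.9 CPM (log2 -0.84 ± 0.14 SE, edgeR adjusted p = 0.000244), and none of the other 17 immediate early genes tested passed. Medag, an adipogenesis gene, had the smallest p of the lower genes outside the clock (244 and 304 CPM, log2 -0.40 ± 0.06 SE, edgeR adjusted p = 1.35e-05). For these 3 genes the groups overlapped.

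Mgp, an inhibitor of calcification, had medians of 149 and 203 CPM (log2 -0.68 ± 0.13 SE, edgeR adjusted p = 0.00188) and was the only one of 40 collagen and matrix genes to pass. Of these 40 genes, 21 were on the higher and 19 on the lower side (median log2 fold change 0.03). Ltbp1, which holds latent TGF-β in the matrix, had 315 and 448 CPM, Sdc4, a syndecan, 140 and 161 CPM, and Il4ra, an interleukin receptor gene, 75.8 and 101 CPM. Stat3, a transcription factor downstream of cytokine receptors, had 138 and 160 CPM (log2 -0.33 ± 0.06 SE, edgeR adjusted p = 0.00358).

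The remaining lower genes were Dpy19l1 (90.6 and 112 CPM), Smpdl3b, a sphingomyelinase-like gene (11.1 and 16.7 CPM), Osgin1, a gene induced by oxidative stress (7.68 and 12.8 CPM), Prnp, the prion protein gene (379 and 427 CPM), Lasp1, an actin-binding protein gene (75.6 and 90.9 CPM), and Myl12a, a myosin light chain gene (443 and 549 CPM). Myl12a overlaps its near-identical copy Myl12b, so its counts are uncertain. Of the 31 genes, 16 overlap another annotated gene and 8 do so at their 3′ end. Prnp, Sdc4, Lasp1 and Pmepa1 fell outside the rule for named genes and are named as members of the 31. These 4, Il18 and Osgin1 no longer passed when 1 or another library was left out, whereas the other 25 genes passed in all 41 such fits.

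**Figure D3:**
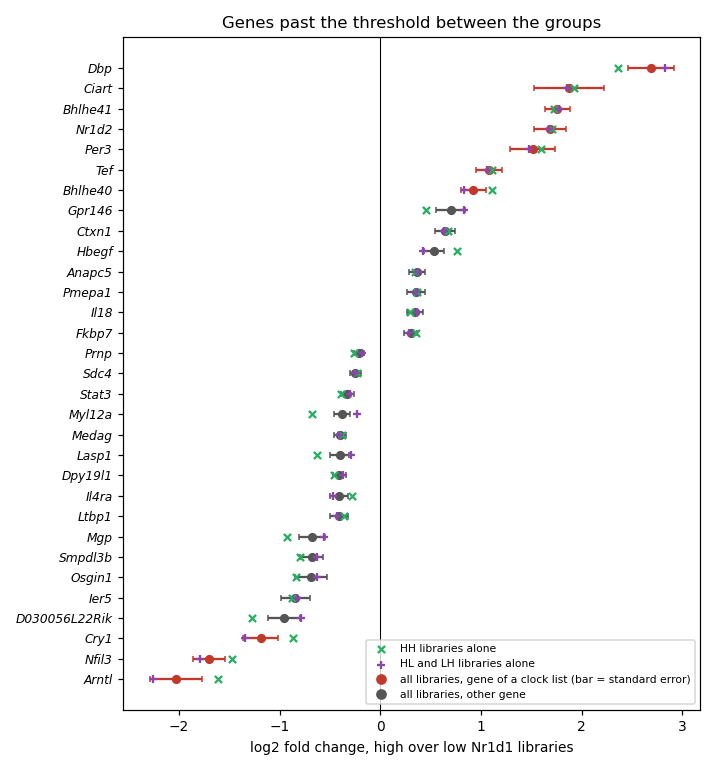
Log2 fold change, high over low Nr1d1 libraries, of the 31 genes past the threshold (points, bars = standard error; red = clock list, grey = other gene), with the fold change in the HH libraries alone (green crosses) and in the HL and LH libraries alone (purple plus signs). The values run from -2.03 for Arntl to 2.69 for Dbp, and all 3 values of each gene lie on the same side of 0.

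Since the names of the HH libraries are not in dispute, the groups were also compared within HH (5 high, 8 low) and within HL and LH together (11 high, 17 low). All 31 genes differed in the same direction in both parts, which the choice of the 31 on all of these libraries makes likely in itself. In HH alone 3 genes passed (0.0226%), and in HL and LH alone 16 passed (0.121%). The 3 were Dbp (log2 2.36, edgeR adjusted p = 0.00281), Nr1d2 (log2 1.71, edgeR adjusted p = 0.00315) and Bhlhe41 (log2 1.72, edgeR adjusted p = 0.000881), and they passed in both parts. No gene passed edgeR's test of the difference between the parts. An unadjusted p under 0.05 was found for 670 genes (5.05%), near the share that this limit gives when nothing differs. Of the 31, Myl12a alone was among these 670 (log2 -0.68 in HH and -0.24 in HL and LH, unadjusted p = 0.00696 by the same edgeR test).

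The 20 libraries between the limits, with 21.3 to 77.6 CPM of Nr1d1, were not used to form the groups. For 30 of the 31 genes their median lay between the medians of the 2 groups, the exception being Sdc4 (134 CPM against 140 and 161 CPM), and for 38.2% of all genes tested. The 31 were chosen for separated groups, which in itself makes a median between them likely. Within these 20 libraries, with log2 Nr1d1 as a slope, no gene passed edgeR's test, and 1054 genes (7.95%) had an unadjusted p under 0.05. The slope had the sign of the group difference for 21 of the 31 genes and for 44.9% of all genes tested. Smpdl3b had the only slope among the 31 with an unadjusted p under 0.05 (-0.31 ± 0.13 SE, edgeR adjusted p = 0.613). The slope of Dbp was 0.60 ± 0.43 (SE), that of Nr1d2 0.32 ± 0.25 and that of Arntl 0.00 ± 0.44, in log2 units for each doubling of Nr1d1. The slopes of Per3 (-0.22 ± 0.40), Bhlhe41 (-0.03 ± 0.27) and Cry1 (0.06 ± 0.30) had the sign opposite to their group differences. Those of Ciart (1.06 ± 0.52), Bhlhe40 (0.36 ± 0.27), Nfil3 (-0.14 ± 0.25) and Tef (0.07 ± 0.24) had the same sign as their group differences.

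Dbp ranged from 3.02 to 79.0 CPM in these libraries (median 7.79), over almost the whole range of both groups. In HH, where the titles and the read summary give the same names, the libraries between the limits were those of collections 2 and 5, and the highest values of Nr1d1 were at collection 3. The time labels of the HH collections, in the order of their numbers, are 20, 12, 4, 8, 12 and 16 h, so collections 2 and 5 carry the same time label and that of collection 2 is out of the 4 h order. The values are therefore given by collection number, and the times behind these numbers were not tested. At collection 2 the 3 libraries had 35.8 to 50.05 CPM of Nr1d1 and 3.02 to 5.85 CPM of Dbp, whereas at collection 5 the 3 libraries had 25.1 to 33.6 CPM of Nr1d1 and 33.9 to 38.0 CPM of Dbp. All 3 libraries of collection 5 thus had less Nr1d1 and more Dbp than any of collection 2.

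Other clock genes also differed between these 2 collections although Nr1d1 was between the limits in both. Nr1d2 had 22.1 to 36.5 CPM at collection 2 and 59.8 to 68.6 CPM at collection 5, Tef 48.8 to 79.3 and 169 to 192 CPM, and Per3 2.09 to 5.87 and 12.7 to 21.9 CPM. Arntl had 3.30 to 9.07 CPM at collection 2 and 0.861 to 1.63 CPM at collection 5. Cry1 had 6.42 to 10.0 and 18.5 to 36.6 CPM, and Per2 0.622 to 0.930 and 5.70 to 19.4 CPM. None of these ranges overlapped. Those of Ciart (0.367 to 0.871 CPM at collection 2 and 0.542 to 1.14 CPM at collection 5) did overlap. So did those of Per1 (4.61 to 11.2 and 8.26 to 13.2 CPM), Hlf, Clock, Rora and Npas2. The share of all genes tested whose ranges do not overlap between these collections was not computed. This comparison was chosen after the values were seen, and with 3 against 3 libraries a two-sided exact permutation test cannot go below p = 0.10.

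**Figure D4:**
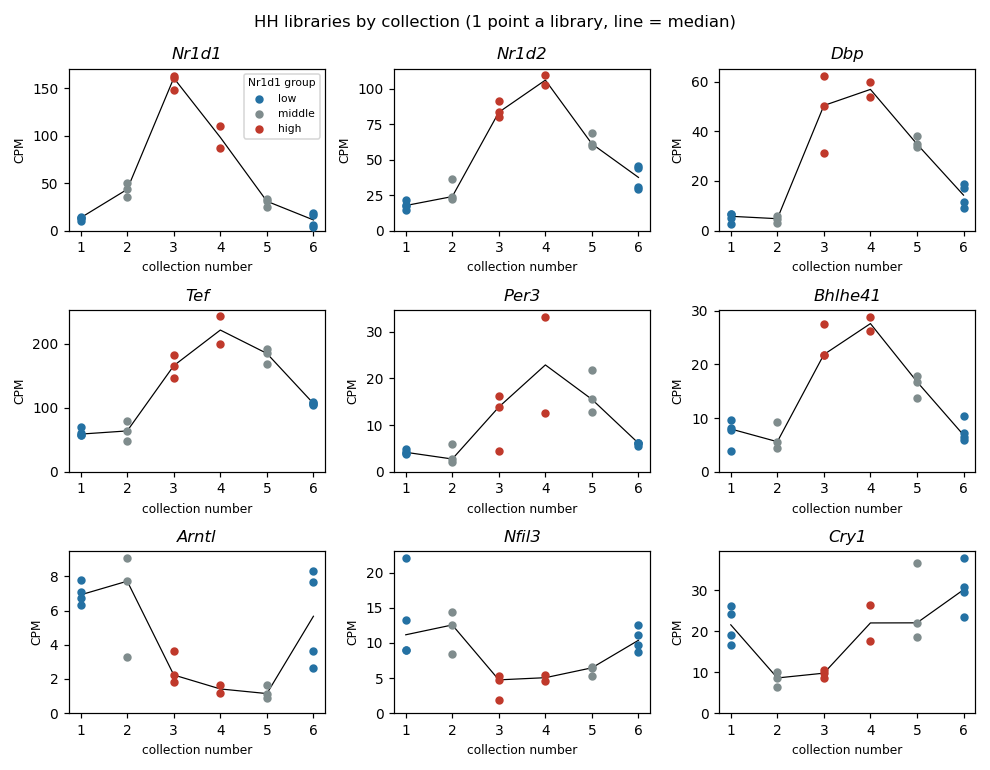
CPM of 9 clock genes in the 19 HH libraries against the collection number, with 1 point for each library coloured by Nr1d1 group and a line through the medians. Nr1d1 has its highest values at collection 3 and Nr1d2, Dbp, Tef and Per3 have their highest medians at collection 4, while Arntl has its lowest median at collection 5.

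In HH, all 5 high libraries came from collections 3 and 4 and all 8 low libraries from collections 1 and 6. Nr1d1 was 148 to 163 CPM at collection 3 and 86.7 to 110 CPM at collection 4. Dbp had its highest median at collection 4 (57.0 CPM, 2 libraries), as had Nr1d2 (106 CPM) and Per2 (12.7 CPM, against 2.61 CPM at collection 3). Cry1 had 8.66 to 10.6 CPM at collection 3 and 17.7 to 26.5 CPM at collection 4, so within the high group its values in HH fell into 2 sets by collection. In the low group, Dbp was 2.44 to 6.83 CPM at collection 1 and 8.93 to 18.8 CPM at collection 6, and Tef 56.9 to 69.4 CPM and 105 to 109 CPM.

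Of the gene lists outside the clock, none of the 30 mitosis genes passed edgeR's test, but 29 were higher in the high libraries (median log2 fold change 0.50, against -0.02 over all genes) and 19 had an unadjusted p under 0.05, all of them higher, against 3.24% of all genes. The mitotic cyclin gene Ccnb2 had medians of 5.15 and 2.51 CPM (log2 0.88 ± 0.26 SE, edgeR adjusted p = 0.215), Aspm, a spindle gene, 8.51 and 4.38 CPM (log2 0.81 ± 0.24 SE, edgeR adjusted p = 0.215) and Ube2c, a ligase partner of the anaphase-promoting complex, 17.8 and 10.5 CPM (log2 0.56 ± 0.18 SE, edgeR adjusted p = 0.254). The summed level of the 30 genes was 419 to 936 CPM in the high libraries (median 584) and 260.7 to 846 CPM in the low libraries (median 418), so 13 of the 25 low libraries lay below every high one and the rest overlapped with the high libraries.

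The 30 DNA replication genes ran the other way without passing, with 27 lower (median log2 fold change -0.14) and 6 with an unadjusted p under 0.05, all lower, against 5.82% of all genes. Of 12 tested genes of mitochondrial DNA, 10 were lower (median log2 -0.25) and 6 had an unadjusted p under 0.05, all lower, and the nearest to the threshold was mt-Cytb, a subunit of respiratory complex III (medians 1894 and 2516 CPM, log2 -0.39 ± 0.09 SE, edgeR adjusted p = 0.0525). The summed level of the 13 mitochondrial genes was 16220 to 27411 CPM in the high and 12923 to 35989 CPM in the low libraries. Genes of 1 list are not independent of each other, and whether the mitochondrial share, which can move with RNA quality, had a part in the other differences was not tested.

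No gene passed among 8 genes known as REV-ERB targets outside the clock, 14 glucocorticoid and KLF genes, 15 G1 and checkpoint regulators, 13 metalloproteinases and inhibitors, 19 genes of glucose sensing and insulin signalling, 24 sterol synthesis genes, 14 heat shock and cold inducible genes and 11 fibroblast markers. Their unadjusted p was under 0.05 for 3, 2, 4, 1, 1, 3, 0 and 0 genes respectively, against 9.06% of all genes, and nothing particular to these lists is read from so few genes. Nearest to the threshold were Cdkn1a, the cell cycle inhibitor p21 (37.4 and 47.5 CPM, log2 -0.52 ± 0.15 SE, edgeR adjusted p = 0.162), and Timp1, a metalloproteinase inhibitor (133 and 143 CPM, log2 -0.60 ± 0.17 SE, edgeR adjusted p = 0.162).

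**Figure D5:**
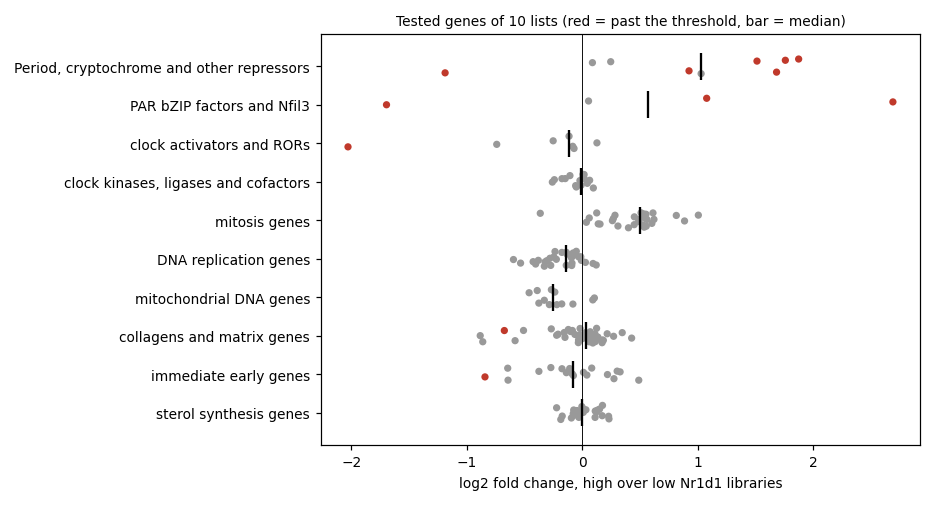
Log2 fold change, high over low Nr1d1 libraries, of the tested genes of 10 lists, with 1 point for each gene, red where the adjusted p was under 0.05, and a bar at the median of the list. Genes past the threshold stand in the 3 upper clock lists, with 1 each among the matrix and the immediate early genes; the median of the mitosis genes is 0.50 and that of the mitochondrial genes -0.25.

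Windows around a transcript start were matched for 11 of the 14 higher and 16 of the 17 lower genes. An E-box stood in at least 1 window of 4 of the 11 (Bhlhe41, Ciart, Gpr146, Tef) and 5 of the 16 (Cry1, Lasp1, Medag, Myl12a, Smpdl3b), against 11.6% of the 10147 tested genes with a window and 7.15% of all 32851 windows. A D-box stood in those of Per3, Medag and Prnp (1.34% of tested genes with a window, 1.66% of all windows), and a RORE in 1 of the 2 windows of Arntl (0.237% of tested genes with a window, 0.384% of all windows), shown in capitals above. Genes with several starts have several windows and so more chances of a match. The windows of Dbp, Nr1d2 and Nfil3 hold none of the 3, which says only that these letters are not within these bases.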

How the data were processed

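RNA of Per2::Luc mouse fibroblasts was counted in 121 sets for 62 libraries. The authors deposited counts of uniquely aligned reads per gene, not normalized, for each sequencing run. The submitters' processing notes name bcl2fastq, STAR 2.6.0a, HTSeq 0.9.1 and mm10, while no annotation release or strand setting was found in the sources used. A set holds 31053 genes, of which 30934 matched a symbol in GENCODE M21. Summary lines at the end of a set were not used (reads on no feature were 18.4% to 29.1% and ambiguous reads 0.288% to 0.459% of the reads). Runs were summed for 59 libraries with 2 runs, and CPM is a count divided by the library total times 1000000.

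Genes with at least 1 CPM in 3 libraries were tested with edgeR 4.0.16 (R 4.3.3, quasi-likelihood, TMM), with adjustment over 13265 genes and a threshold of 0.05. SE is the size of the log2 fold change divided by the square root of F. A slope on log2 Nr1d1 was fitted in the libraries between the limits, and the interaction of group and HH in the 2 groups. The tests were run on simulated counts first. Members and gene lists were chosen with earlier results of these data known. Named genes are the clock lists, Thra, genes past the threshold with a mean of at least 5 CPM (the 12 of smallest p and 5 of largest fold in each direction) and up to 4 genes of smallest p in each other list, not all of which are printed, and 1 gene of the clock lists is not reported here. Promoter windows came from RefSeq. Alternatives used limma 3.58.1, DESeq2 1.42.0, other scaling, filters, limits, single runs, covariates and libraries left out. At the median total of a group, a gene at 1 CPM rests on few counts, so low genes are imprecise.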

Additional observations from a re-analysis of the deposited data

Results flagged for a closer look

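Within sets of 4 libraries that share treatment and collection in their titles, 99 groups of values (Nr1d1 and the 10 clock genes) were searched for a library far from the other 3, and 9 stood out by Dixon's criterion at 95%, where chance flags about 1 in 20 groups. The 9 include the flag of Nr1d1 in LH collection 6 replicate 1, which is only a description, since Nr1d1 formed the high and low groups. Clock genes of 1 library are not independent of each other. LH collection 3 replicate 4, a high library, had 77.5 CPM of Dbp (the others 6.0 to 7.48), 115 CPM of Nr1d2 (32.7 to 35.7), 223.1 CPM of Tef (66.1 to 77.9) and 3.87 CPM of Ciart (0.613 to 1.08). LH collection 6 replicate 1 had 36.5 CPM of Nr1d1 (the others 5.44 to 7.80), 37.0 CPM of Dbp (4.95 to 10.1) and 108 CPM of Nr1d2 (19.8 to 29.6). LH collection 5 replicate 1 had 24.4 CPM of Per3 (the others 9.54 to 10.3), and HL collection 4 replicate 2 had 19.5 CPM of Cry1 (6.85 to 8.02). All 4 libraries are among those whose names are disputed. So, however, is every library of the HL and LH sets searched, and 40 of the 62 libraries of the series. The part of the names in these values was not tested.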

How the results depend on the processing

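Of the 31 genes past the threshold, all kept the direction of their fold change in 18 alternatives, and 3 (Dbp, Nr1d2 and Bhlhe41) passed in every one. Leaving out each of the 41 libraries in turn gave 25 to 38 genes (12 to 17 higher, 13 to 22 lower). In these fits 25 of the 31 always passed, and Il18, Lasp1, Osgin1, Pmepa1, Prnp and Sdc4 did not. Counts moved by over 1.5 times with DESeq2's Wald test (49 genes, 29 lower), run 2 alone (19, 9 lower), groups from run 1 tested on run 2 (20, 10 lower), HH alone (3 higher, 0 lower, with 929 genes at an unadjusted p under 0.05), HL and LH alone (16, with 9 higher and 7 lower) and, added after the data were seen, the libraries whose names agree (6, with 5 higher and 1 lower, from 16 libraries). The fits on single runs set no limit on the total of a run. In run 2 the low libraries LH collection 2 replicate 4 and LH collection 6 replicate 3 had 99.3 and 53.7 CPM of Nr1d1. In run 1 they had 17.9 and 4.99 CPM. Without a filter on low counts 26 genes were higher, and with limits of 60 and 30 CPM 11 were lower. Library totals as the only scaling gave 16 higher and 13 lower genes, against 14 and 17. The slope on Nr1d1 gave 0 genes by edgeR in every fit of the libraries between the limits, also with each left out, and 81 over all libraries with at least 1000000 counts, where the 2 groups enter.

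No pairing of libraries across the groups by the replicate numbers of the titles was seen. Deviations were taken from group means over mixed treatments and collections, which could hide a pairing, and many of these titles are disputed. Deviations of same-numbered libraries had a median correlation of -0.006 (98 pairs), those of other pairs 0.009 (302 pairs), and 11 of 41 libraries were closest to their own number. With the replicate block 25 genes passed (10 higher, 15 lower) for the groups and 0 for the slope. With the title group as a random block, limma voom gave 28. Genes near 1 CPM are limited by depth.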
